A study of Mus musculus with 6 samples.

Results

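The proteasome genes were compared between CpG-stimulated and unstimulated B cells from spleens of BALB/c mice. Members were taken by symbol, as all genes named Psm with a letter from a to g and a digit. They numbered 49 of the 23420 genes listed, and 47 of them were among the 11233 genes tested. Bead-purified B cells of WT mice aged 7 to 11 weeks were cultured for 4 hours at 10 M cells per mL, with 10 μg/mL of CpG ODN 1826 or without stimulus. CpG ODN 1826 is a synthetic DNA that activates TLR9. There were 3 CpG-stimulated and 3 unstimulated samples of 10 M cells each, with replicates 1 and 2 labeled female and replicate 3 male. The labels name no transgene or deleted allele in either group.

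The 26S proteasome degrades proteins that are tagged with ubiquitin. Its 20S core is a barrel of alpha and beta rings, whose beta rings hold the catalytic sites, and its 19S regulatory particle binds, unfolds and feeds substrates into the core. In lymphocytes and in cells exposed to interferon, the catalytic subunits encoded by Psmb5, Psmb6 and Psmb7 are partly replaced in new cores by those encoded by Psmb8, Psmb9 and Psmb10. The resulting immunoproteasome is known for making peptides that are presented by MHC class I. Activators of the Psme family can cap the core in place of the 19S particle, and dedicated chaperones assemble both particles.

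The deposited values are log2 CPM, the reads of a gene per M reads, after quantile normalization and voom. The most common value, -5.15, is shared to within 0.0015 by 5443 genes in all 6 samples and was taken as the level of no reads. Voom places a gene without reads there when 17.8 M reads fall on genes, and at that depth 10 reads stand at -0.76 and 3 reads at -2.34. Between 1317 and 1504 genes of a sample had values below -5.15, so these levels are approximate for a single gene. Sums over all genes ranged from 992384 to 1012396 CPM, so the depth of single samples cannot be read from the values. A change in total RNA per cell cannot be seen on this scale, and in bulk samples fewer cells of a type and less RNA per cell cannot be told apart. A gene was tested where at least 3 samples lay above the level of 10 reads, with limma and Benjamini-Hochberg adjustment over all genes tested, and a gene increased or decreased at an adjusted p under 0.05. Nothing in the labels ties samples of the same number to a mouse, so the p values measure the spread between these 3 samples of each group.

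By the mean over the 6 samples, all 8 B cell markers lay above the level of 10 reads, with summed levels of 11.53 to 11.72 log2 CPM in stimulated and 11.95 to 12.16 in unstimulated samples. Of 7 T cell markers 2 did, Lck and Cd5, and Cd3d, Cd3e, Cd3g, Cd4 and Cd8a did not (summed 6.97 to 7.15 and 6.17 to 6.54). Of 5 dendritic cell markers 2 did, Flt3 and Zbtb46, and Itgax, Xcr1 and Siglech did not (6.49 to 6.72 and 4.93 to 5.25). None of the 4 NK cell markers did by this mean (-0.47 to 0.40 and -2.99 to -2.47). Of these, Klrb1c had a mean above that level in the stimulated samples, at -0.13 against -4.65 in the unstimulated samples, with stimulated values of -0.84, 0.23 and 0.23. Of the 5 myeloid markers listed 4 did (3.32 to 3.93 and 2.84 to 3.79), and Csf1r, with means of -1.98 and -0.37, did not. Erythroid markers, 4 of 6, were highest in replicate 2 of both groups (8.58 to 12.26 and 8.66 to 11.91), while Hba-a1 and Hba-a2 stood at the level of no reads in all samples. The T cell, dendritic and NK sums were thus higher, and the B cell sum lower, in stimulated samples. The T cell sum rested on Lck, with means of 7.05 in stimulated and 6.38 in unstimulated samples, while Cd5 had a log2FC of -0.32 (adjusted p = 0.334). The dendritic sum rested on Zbtb46 and Flt3, and the rise of the NK sum on Klrb1c. The B cell markers moved in both directions, from a log2FC of -2.40 for Cd22 to 0.83 for Fcer2a. The part of these markers in the results was not tested.

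Of the 47 members tested, 40 increased with CpG (85.1%, against 37.6% of all genes tested) and 4 decreased (8.51%, against 36.7%). Without Psmc3ip, which encodes no proteasome protein, 39 of 46 increased, 4 decreased and 10 passed a log2FC of 1. The 4 that decreased were Psmb8, Psmb10, Psmb1 and Psme4, and Psmb9, Psmf1 and Psmd10 did not pass. A log2FC over 1 was reached by 11 of the 47 (23.4%, against 15.8% of all genes), and no member fell under -1 (against 15.3%), the lowest being Psmb10 at -0.76. All stimulated samples lay above all unstimulated samples in 41 of the 47 (87.2%, against 39.1%), and all lay below in 4 (8.51%, against 38.6%). The median log2FC was 0.73 over the members and 0.0033 over all genes tested. All 47 lay above the level of 10 reads in all 6 samples, so none was tested on the strength of 1 group. Without stimulated replicate 2 the counts were 41 increased and 4 decreased, and without unstimulated replicate 2 they were 40 and 4. The plot of log2FC by class shows the members that rose beside the 5 that had a negative value.

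**Figure D1:**
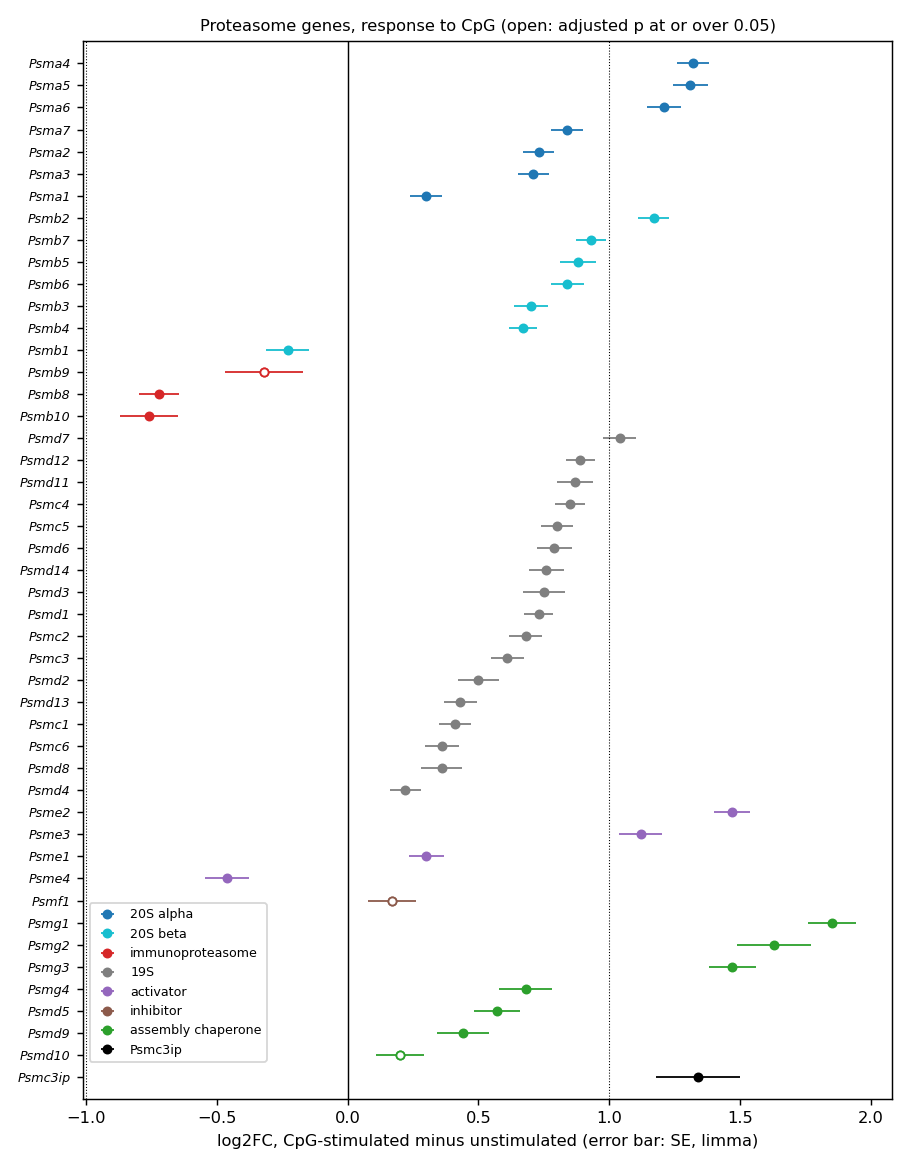
Log2FC between CpG-stimulated and unstimulated B cells (x axis, points) for the 47 members tested, Psmc3ip included, grouped and colored by class. Bars are the SE of the limma fit over 3 samples in each group. Open points had an adjusted p of 0.05 or more, and dotted lines mark a log2FC of 1 and -1. The 3 immunoproteasome genes, Psmb1 and Psme4 lie left of 0, and Psmg1 lies farthest to the right at 1.85.

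In linear units, the 48 proteasome genes listed took 4342 ± 69.2 CPM in unstimulated and 7060 ± 96 CPM in stimulated samples (SD, n = 3), a ratio of 1.63. The 14 constitutive core genes went from 1371 ± 27.2 to 2375 ± 67.6 CPM (ratio 1.73), and the 17 genes of the 19S particle from 1891 ± 28.7 to 2944 ± 44.8 CPM (ratio 1.56). The 3 immunoproteasome genes moved the other way, from 191 ± 14.5 to 121 ± 6.62 CPM, a ratio of 0.636. The 4 activators summed to 717 ± 45.2 and 1301 ± 65.7 CPM (ratio 1.82), and the 7 assembly chaperones to 137 ± 5.11 and 278 ± 11.7 CPM (ratio 2.03). Within each class the sums of the groups did not overlap. The remaining member by symbol, Psmc3ip, encodes a cofactor of meiotic recombination and no proteasome protein, and is left out of these sums.

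Upstream sequences are shown for Psmb5 and Psmb6, catalytic genes that rose, for Psmb10, an immunoproteasome gene that fell, for Psme3 and Psme4, activators that moved in opposite directions, and for Psmg1, the member with the highest log2FC. Each is the RefSeq sequence upstream of the gene on GRCm38.p6, up to the base where the annotation places an exon, read 5′ to 3′ on the strand of the gene, and capitals mark matches to the motifs named below. The Psmb5 stretch is chr14:54618023-54618245 (-), Psmb6 chr11:70525107-70525366 (+), Psmb10 chr8:105938445-105938642 (-), Psme3 chr11:101315963-101316212 (+), Psme4 chr11:30771525-30771725 (+) and Psmg1 chr16:95990961-95991210 (-).
Psmb5: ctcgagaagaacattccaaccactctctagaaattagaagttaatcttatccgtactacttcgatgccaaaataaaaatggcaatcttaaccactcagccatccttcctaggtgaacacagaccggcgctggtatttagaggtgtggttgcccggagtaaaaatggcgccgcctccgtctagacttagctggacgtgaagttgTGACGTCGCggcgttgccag
Psmb6: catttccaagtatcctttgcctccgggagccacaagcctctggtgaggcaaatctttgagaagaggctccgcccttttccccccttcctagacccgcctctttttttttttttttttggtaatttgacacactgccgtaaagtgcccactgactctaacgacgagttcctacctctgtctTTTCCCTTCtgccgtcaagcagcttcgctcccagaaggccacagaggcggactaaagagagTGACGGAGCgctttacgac
Psmb10: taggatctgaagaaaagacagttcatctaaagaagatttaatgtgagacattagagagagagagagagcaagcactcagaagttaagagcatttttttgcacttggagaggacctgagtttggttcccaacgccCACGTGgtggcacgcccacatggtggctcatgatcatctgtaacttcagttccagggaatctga
Psme3: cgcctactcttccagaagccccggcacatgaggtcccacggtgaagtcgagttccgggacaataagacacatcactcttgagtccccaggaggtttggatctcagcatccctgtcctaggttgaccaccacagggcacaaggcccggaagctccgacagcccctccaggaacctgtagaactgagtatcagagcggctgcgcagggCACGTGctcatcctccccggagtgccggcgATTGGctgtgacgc
Psme4: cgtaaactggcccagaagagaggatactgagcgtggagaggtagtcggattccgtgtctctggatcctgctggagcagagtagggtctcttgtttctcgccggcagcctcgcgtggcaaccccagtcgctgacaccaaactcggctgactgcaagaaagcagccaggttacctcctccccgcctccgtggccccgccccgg
Psmg1: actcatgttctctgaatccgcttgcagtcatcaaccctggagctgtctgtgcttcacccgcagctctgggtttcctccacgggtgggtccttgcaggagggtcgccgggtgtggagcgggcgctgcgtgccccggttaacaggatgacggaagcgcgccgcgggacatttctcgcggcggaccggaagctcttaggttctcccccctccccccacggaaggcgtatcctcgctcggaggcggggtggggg

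Short motifs, 6 in all, were counted on both strands of promoter windows, from 250 bases before to 50 bases after the gene start, for 40 members tested that have one. TGACNNNGC, the core of the element bound by NRF1 (Nfe2l1), a factor known to drive proteasome genes, was in 15% of the members and in 17.1% of 8400 genes tested. GAANNGAAA, which resembles sites of interferon regulatory factors, was in 12.5% and 7.26%, and GGNNTTTCC, which resembles NF-κB sites, in 7.5% and 7.43%. CCAAT was in 35% and 43.3%, CACGTG in 10% and 12.4%, and TATAAA in 10% and 8.3%. The counts behind these shares were 3 to 14 members for each motif, and the differences from all genes tested were not tested. TGACNNNGC starts at base 204 of the Psmb5 window, at base 242 of the Psmb6 window and at base 244 of the Psme4 window, the last in the part that lies in an exon. Psmb5 and Psmb6 rose and Psme4 fell, while the Psmg1 window holds none of the 6 motifs and Psmg1 rose most. The windows of Psmb8 and Psmb9 lie entirely in annotated exons and are not printed; the former holds TATAAA and the latter CCAAT.

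The genes of the alpha rings, which frame the core and gate its entry, rose as a whole. All 7 genes of the alpha subunits, Psma1 to Psma7, increased, with a median log2FC of 0.84 and a range from 0.30 for Psma1 to 1.32 for Psma4. Psma4 went from 6.18 ± 0.045 to 7.50 ± 0.046 log2 CPM (SD, n = 3; adjusted p = 5.11e-08), and Psma5 and Psma6 also passed a log2FC of 1, at 1.31 and 1.21. Psma1 rose from 6.42 ± 0.053 to 6.72 ± 0.027 (adjusted p = 0.00112), and its stimulated samples still lay above all unstimulated ones. Of the stretches of 75 bases (the read length) in Psma5 transcripts, 35.2% also occur in transcripts of other genes, mostly Gm8394, so its level depends on how such reads were assigned. Psma8, the alpha subunit of testis, had values of -1.61, -2.89 and -4.26 in stimulated and of -3.44, -4.68 and -3.04 in unstimulated samples, and was not tested. All but 1 of these lie below the level of 3 reads.

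The beta rings divided by gene. Of the 7 constitutive beta genes, 6 increased, and their median log2FC was 0.84, as for the alpha genes. Among those without a catalytic site, Psmb2 had the highest log2FC at 1.17 (adjusted p = 9.93e-08), and Psmb3 and Psmb4 stood at 0.70 and 0.67. Psmb1, the remaining structural gene, had values of 7.06, 7.36 and 7.08 log2 CPM in stimulated and of 7.37, 7.45 and 7.37 in unstimulated samples. Its groups did not overlap, but stimulated replicate 2 lay close to the lowest unstimulated values. The log2FC of Psmb1 was -0.23 (SE 0.083, adjusted p = 0.0289). It did not pass without stimulated replicate 1 (-0.18, adjusted p = 0.0971) or 3 (-0.19, 0.111), nor without unstimulated replicate 1 (0.0546), 2 (0.0924) or 3 (0.0547). Without stimulated replicate 2 it was -0.33 (adjusted p = 0.000484). Psmb11, the beta subunit of the thymus, ranged from -5.21 to -3.34 log2 CPM and thus stayed below the level of 3 reads in all samples.

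The 3 catalytic genes of the constitutive core all rose by less than a log2FC of 1. Psmb5 encodes the chymotrypsin-like subunit (chr14:54614119-54618022 on GRCm38, as for all genes below, minus strand) and had 5.92, 5.86 and 5.84 log2 CPM in stimulated and 4.94, 4.99 and 5.06 in unstimulated samples. Psmb6 encodes the caspase-like subunit (chr11:70525367-70527858, plus strand) and had 7.04, 7.17 and 7.09 against 6.20, 6.30 and 6.29. Psmb7 encodes the trypsin-like subunit (chr2:38588036-38644087, minus strand) and had 7.58, 7.67 and 7.60 against 6.66, 6.68 and 6.72. In all 3 genes every stimulated sample was above every unstimulated one, and SDs within groups were 0.034 to 0.066. The log2FC was 0.88 for Psmb5 (SE 0.069, adjusted p = 1.41e-06), 0.84 for Psmb6 (SE 0.064, adjusted p = 1.21e-06) and 0.93 for Psmb7 (SE 0.058, adjusted p = 3.12e-07). Stretches of 75 bases shared with other genes make up 36.8% of Psmb5, most of them with Gm3375, and none of Psmb6 or Psmb7. Psmb7 overlaps Nek6 on the opposite strand.

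Of their immunoproteasome counterparts, Psmb8 and Psmb10 decreased, and Psmb9 had a lower mean in stimulated samples without passing the test. Psmb8, which takes the place of Psmb5, had 6.22, 6.27 and 6.09 log2 CPM in stimulated and 6.97, 6.79 and 6.99 in unstimulated samples. Psmb10, which takes the place of Psmb7 (chr8:105935735-105938444, minus strand), had 4.47, 4.30 and 4.69 against 5.36, 5.19 and 5.19. In both genes all stimulated samples were below all unstimulated ones. The log2FC was -0.72 for Psmb8 (SE 0.077, adjusted p = 1.31e-05) and -0.76 for Psmb10 (SE 0.11, adjusted p = 9.43e-05), a change of -39.5% and -41.1% in linear units, and neither lost its call in any alternative.

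Psmb9, which takes the place of Psmb6, had 4.98, 4.61 and 4.41 log2 CPM in stimulated and 5.18, 4.77 and 5.0 in unstimulated samples. The groups overlapped, since stimulated replicate 1 lay above unstimulated replicate 2, and replicate 1 was the highest of its group in both. Its log2FC was -0.32 (SE 0.15, 95% interval -0.65 to 0.015, adjusted p = 0.077). With the replicate number as a block the adjusted p was 0.00666. It was 0.00771 without stimulated replicate 1, where the log2FC was -0.48, and 0.0359 without unstimulated replicate 2, where it was -0.43, while the other alternatives gave 0.0751 to 0.276. The Psmb9 gene (chr17:34181987-34187764, minus strand) overlaps the start of Tap1 on the opposite strand, and whether reads were counted by strand is not given in the sources used here. Psmb8 (chr17:34197721-34201454, plus strand) lies 495 bases beyond Tap1 and 2072 bases before Tap2.

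**Figure D2:**
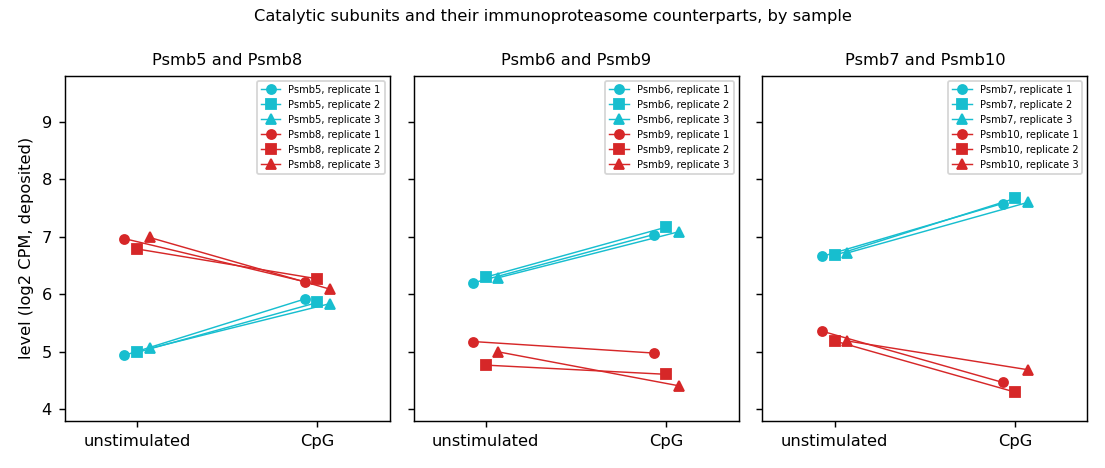
Deposited level in log2 CPM (y axis) of the 3 constitutive catalytic genes (cyan) and of the immunoproteasome genes that replace them (red) in each unstimulated and CpG-stimulated sample; symbols mark the replicate number and lines join samples of the same number. Psmb5, Psmb6 and Psmb7 rose by 0.88, 0.84 and 0.93, and Psmb8 and Psmb10 fell by 0.72 and 0.76, while the Psmb9 values of the groups overlapped.

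Within each pair of genes that compete for the same place in the core, the balance moved toward the constitutive subunit in the stimulated samples. The level of Psmb8 relative to Psmb5 changed by -1.60 on the log2 scale (SE 0.08), or 3.04-fold. That of Psmb9 relative to Psmb6 changed by -1.15 (SE 0.24), or 2.23-fold, and that of Psmb10 relative to Psmb7 by -1.70 (SE 0.15), or 3.24-fold. In all 3 pairs the stimulated and unstimulated samples did not overlap, also for Psmb9, whose own values did. An exact permutation test gave p = 0.1 for each pair (two-sided, n = 3 in each group), the smallest value that 3 samples against 3 can reach. Leaving out each sample in turn gave changes from -1.34 to -1.02 for Psmb9 relative to Psmb6.

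Per kb of transcript, the immunoproteasome genes made up different shares of the 3 pairs. Psmb8 held 69.2, 65.8 and 67.9% of the summed level per kb of Psmb8 and Psmb5 in unstimulated samples, and 40.4, 42.3 and 39.5% in stimulated samples. Psmb9 held 22.6, 17 and 19.4% beside Psmb6, and 12.4, 9.09 and 8.4% after stimulation. Psmb10 held 26.5, 24 and 23.5% beside Psmb7, and 9.3, 7.86 and 10.5% after stimulation. Per kb, Psmb8 was thus the more abundant transcript of its pair before stimulation and the less abundant after it. Psmb9 and Psmb10 were the less abundant ones in both conditions. Without division by length, Psmb8 stayed above Psmb5 in the stimulated samples, by 0.30, 0.41 and 0.24 log2 CPM. The reversal of Psmb8 and Psmb5 therefore depends on the lengths used. Mean shares went from 67.6 ± 1.68 to 40.8 ± 1.43% for Psmb8, from 19.6 ± 2.82 to 9.97 ± 2.15% for Psmb9 and from 24.7 ± 1.61 to 9.22 ± 1.32% for Psmb10 (SD, n = 3). Lengths were those of the longest coding transcript matched to RefSeq, and the share of Psmb8 depends on the uncertain level of Psmb5. These are shares of mRNA and do not give the makeup of assembled cores.

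**Figure D3:**
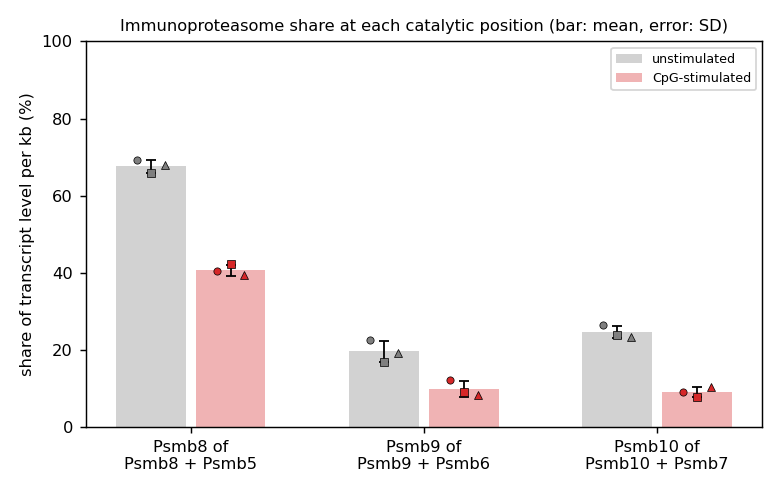
Share in percent (y axis) of the summed transcript level per kb that belonged to the immunoproteasome gene at each of the 3 catalytic positions, in unstimulated (gray) and CpG-stimulated (red) samples; bars are means, error bars SD and points the 3 samples of a group. The Psmb8 share went from 67.6 to 40.8%, the Psmb9 share from 19.6 to 9.97% and the Psmb10 share from 24.7 to 9.22%, with no overlap between groups.

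The genes of the 19S particle rose throughout. All 17 increased, with a median log2FC of 0.73 and a range from 0.22 to 1.04, narrower than that of the core genes. The 6 ATPases that unfold substrates, Psmc1 to Psmc6, had a median of 0.65, from 0.36 for Psmc6 to 0.85 for Psmc4. Psmc4 went from 6.62 ± 0.043 to 7.47 ± 0.026 log2 CPM (adjusted p = 4.88e-07) and Psmc6 from 6.05 ± 0.032 to 6.40 ± 0.073 (adjusted p = 0.000606). The scaffold genes of the base, Psmd1 and Psmd2, stood at 0.73 and 0.50, and Psmd4, a ubiquitin receptor, at 0.22, from 7.01 ± 0.052 to 7.23 ± 0.046 log2 CPM (adjusted p = 0.00625). Psmd4 had the lowest log2FC of the particle, yet its groups did not overlap. In the lid the median was 0.77 over 8 genes. Psmd7 was the only 19S gene over a log2FC of 1, at 1.04 (6.33 ± 0.019 to 7.37 ± 0.082 log2 CPM, adjusted p = 2.57e-07), and Psmd14, which encodes the deubiquitinase that Psmd7 pairs with, rose by 0.76. Psmd12 had the smallest SD of the members, 0.0095 in unstimulated samples, and a log2FC of 0.89. Psmd8 had the lowest of the lid, 0.36 (adjusted p = 0.00174).

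Levels per kb differed among subunits of the same particle. Most of these occur in equal numbers when assembled, but those of Psmb5, Psmb6 and Psmb7 are partly replaced by immunoproteasome subunits. The 14 constitutive core genes spanned 2.15 to 2.17 on the log2 scale in unstimulated and 2.12 to 2.21 in stimulated samples. The SD over these genes was 0.62 to 0.63 and 0.70 to 0.71. Psma7 had the highest level in all 6 samples, and Psmb5 or Psma3 the lowest. Over the 17 genes of the 19S particle the span was 2.13 to 2.32 and 2.16 to 2.28, and Psmd8 was the highest and Psmc6 the lowest in every sample. The median level per kb of the core genes was above that of the 19S genes in every sample, at 6.25 to 6.35 against 5.69 to 5.74 without and 7.23 to 7.26 against 6.49 to 6.58 with CpG. Stretches of 75 bases shared with other genes made up 14.3% of Psma3, 10.3% of Psmb3 and 9.77% of Psmd2, so these levels are uncertain beside those of Psma5 and Psmb5. The plot of levels per kb shows all classes in both conditions.

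**Figure D4:**
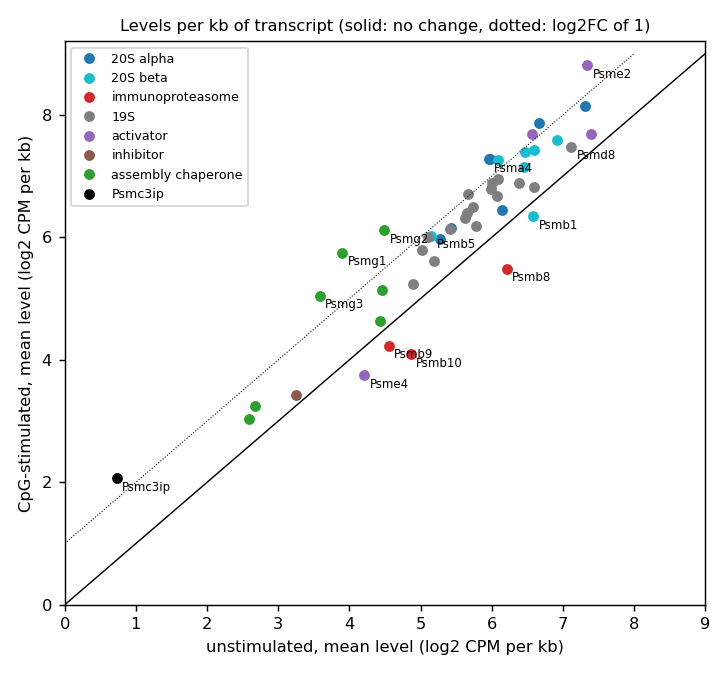
Mean level in log2 CPM per kb of transcript in unstimulated (x axis) and CpG-stimulated samples (y axis) of the 47 members tested. Psmc3ip is included, each point is 1 gene colored by class, and levels are means of 3 samples. The solid line marks equal levels and the dotted line a log2FC of 1. Psmb1, the immunoproteasome genes and Psme4 lie below the solid line, and Psme2 is the highest gene after stimulation at 8.81.

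The activators differed from one another. Psme1 and Psme2 encode the alternating subunits of PA28αβ, a cap that opens the core without ATP and is known as interferon-inducible. Psme2 had 8.81, 8.74 and 8.71 log2 CPM in stimulated and 7.38, 7.17 and 7.30 in unstimulated samples, while Psme1 had 7.82, 7.89 and 7.83 against 7.66, 7.46 and 7.50. Neither gene overlapped between the groups, but the step was much larger in Psme2. The log2FC was 1.47 for Psme2 (SE 0.069, adjusted p = 6.25e-08) and 0.30 for Psme1 (SE 0.067, adjusted p = 0.00212). Psme2 relative to Psme1 changed by 1.16 (SE 0.054), from nearly equal levels per kb of 7.34 and 7.39 to 8.81 and 7.69. This comparison was chosen after the values were seen, and its exact permutation p was 0.1 (n = 3 in each group), the smallest possible. Both genes lie on chromosome 14, at chr14:55578123-55581529 (plus strand) for Psme1 and chr14:55587441-55591113 (minus strand) for Psme2. Psme2 shares 22.9% of its 75-base stretches with Psme2b. No gene is listed under the symbol Psme2b, and a part of the Psme2 level may belong to that copy.

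Psme3 encodes PA28γ, the nuclear cap that acts on proteins without ubiquitin (chr11:101316213-101323537, plus strand). It had 9.22, 8.96 and 9.13 log2 CPM in stimulated and 8.10, 7.96 and 7.90 in unstimulated samples, and its log2FC was 1.12 (SE 0.082, adjusted p = 9.03e-07). Psme4 encodes PA200, a nuclear cap linked to acetylated histones (chr11:30771726-30880361, plus strand). It had 6.60, 6.28 and 6.46 against 6.97, 6.91 and 6.84, and its log2FC was -0.46 (SE 0.084, adjusted p = 0.000662). Psme3 was higher and Psme4 lower in all stimulated samples. Of the 4 activators, 3 thus increased and 1 decreased, and the median log2FC of the class, 0.71, describes none of them.

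Psmf1 encodes PI31, known as an inhibitor of the core in vitro. It had 5.45, 5.23 and 5.39 log2 CPM in stimulated and 5.29, 5.23 and 5.03 in unstimulated samples, and the groups overlapped. The log2FC was 0.17 (SE 0.092, 95% interval -0.035 to 0.38, adjusted p = 0.117). Without stimulated replicate 2 it was 0.23 (adjusted p = 0.0378), and the remaining alternatives gave adjusted p values from 0.061 to 0.382.

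The assembly chaperones held the members with the largest log2FC. Psmg1 and Psmg2 encode partners (PAC1 and PAC2) that act together on the first steps of the alpha ring, as Psmg3 and Psmg4 (PAC3 and PAC4) do. Psmg1 had 5.82, 5.75 and 5.86 log2 CPM in stimulated and 4.12, 3.82 and 3.94 in unstimulated samples. Psmg2 had 6.38, 5.98 and 6.25 against 4.86, 4.49 and 4.38, and Psmg3 had 4.89, 4.91 and 4.80 against 3.39, 3.33 and 3.48. All 3 were separated by more than 1 log2 unit between the nearest samples of the groups. The log2FC was 1.85 for Psmg1 (SE 0.092, adjusted p = 7.99e-08), 1.63 for Psmg2 (SE 0.14, adjusted p = 2.32e-06) and 1.47 for Psmg3 (SE 0.09, adjusted p = 2.74e-07), or 3.61-, 3.1- and 2.77-fold. The log2FC of Psmg1 was at the 96th percentile of all genes tested. Psmg4, the partner of Psmg3, rose from 3.61 ± 0.082 to 4.29 ± 0.13 (log2FC 0.68, adjusted p = 0.000172).

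The chaperones of the 19S base with a Psm symbol had lower log2FC values than the core chaperones Psmg1 to Psmg4, a difference that was not tested. It does not extend to Pomp, a core assembly factor without a Psm symbol, which had a log2FC of 0.40. Psmd5 and Psmd9 increased by 0.57 (adjusted p = 0.00022) and 0.44 (adjusted p = 0.00297). Psmd10, also known as gankyrin, had 5.04, 5.30 and 5.09 log2 CPM in stimulated and 4.89, 4.92 and 5.03 in unstimulated samples, with no overlap but hardly a gap. Its log2FC was 0.20 (SE 0.09, 95% interval -0.0029 to 0.40, adjusted p = 0.0689). With the replicate block the adjusted p was 0.0364, and without stimulated replicate 1 it was 0.0396 (log2FC 0.25).

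**Figure D5:**
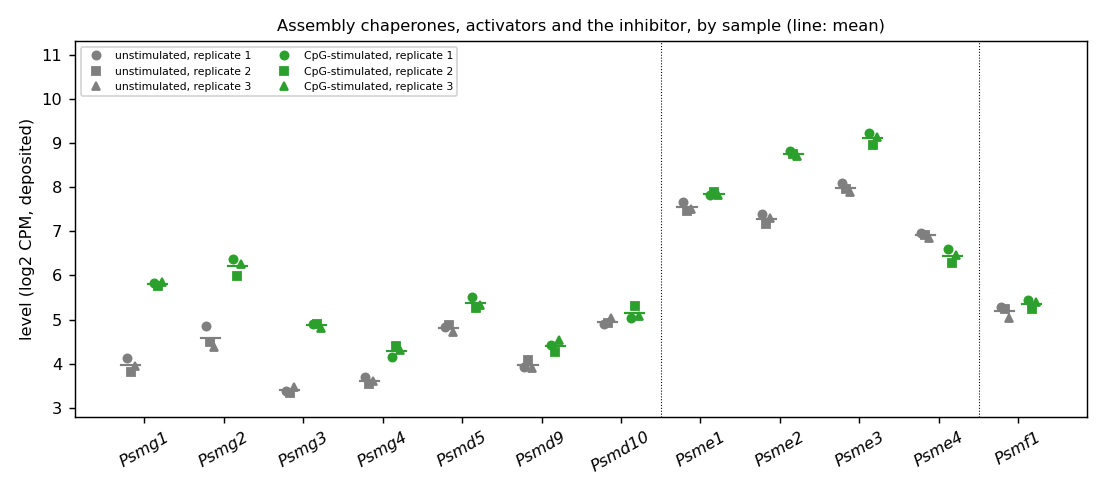
Deposited level in log2 CPM (y axis) of the 7 assembly chaperones, the 4 activators and the inhibitor Psmf1 in each unstimulated (gray) and CpG-stimulated (green) sample; symbols mark the replicate number and lines the mean of 3 samples. Psmg1, Psmg2, Psmg3, Psme2 and Psme3 do not overlap between groups, Psme4 is lower in stimulated samples, and the Psmf1 samples overlap.

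Psmc3ip matched the symbol rule and had the lowest level of the members tested, while Psma8 was the highest of the members that the filter left out. It had 2.38, 2.34 and 2.60 log2 CPM in stimulated and 1.11, 1.04 and 1.13 in unstimulated samples, without overlap. Its log2FC was 1.34 (SE 0.16, adjusted p = 3.43e-05).

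Other genes of the ubiquitin and proteasome pathway moved in both directions. Of 34 such genes on the list, 33 had values and were tested, of which 16 increased, 10 decreased and 7 did not pass, with a median log2FC of 0.17. Among all genes tested 37.6% increased and 36.7% decreased. Subunits and assembly factors without a Psm symbol had log2FC values below the median of the members, with 0.40 for Adrm1, a ubiquitin receptor of the 19S base, 0.40 for Pomp, which completes the core, and 0.17 for Shfm1 of the lid (adjusted p = 0.108, and 0.0184 with the replicate block). Among proteins that bind the 19S particle, the deubiquitinases Usp14 and Uchl5 rose by 0.99 and 0.43, Txnl1 by 0.85, Pithd1 by 0.63, Zfand2a by 0.40, Ube3c by 0.65 and the adaptor AI314180 by 0.29. Of that kind, Zfand5 fell by 0.68 and the phosphatase Ublcp1 fell by 1.09.

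Of the shuttle factors that carry substrates to the proteasome, Rad23b and Ubqln4 rose by 0.45 and 0.84, Ubqln2 fell by 0.50 and Ubqln1 had a log2FC of 0.03. Of the enzymes that activate ubiquitin, Uba6 rose by 1.06 and Uba1 fell by 0.15 (adjusted p = 0.0307). Hectd3, a ubiquitin ligase, had the lowest value of the list at -1.84 (4.70 ± 0.037 to 2.87 ± 0.11 log2 CPM, adjusted p = 1.3e-07). Ubb, which encodes ubiquitin, fell by 0.32 (adjusted p = 0.00555), and Rps27a, which encodes ubiquitin fused to a ribosomal protein, had a log2FC of -0.043 (adjusted p = 0.581). Reads of the ubiquitin repeats could be split among the genes that encode them.

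Nfe2l1, which encodes the factor that induces proteasome genes when the proteasome is impaired, had 8.40, 8.30 and 8.31 log2 CPM in stimulated and 8.29, 8.17 and 8.15 in unstimulated samples. Its log2FC was 0.14 (SE 0.063, adjusted p = 0.0664, and 0.0219 with the replicate block). Of the enzymes that process this factor, Ddi2 rose by 0.33 (adjusted p = 0.0052) and Ngly1 fell by 1.05 (adjusted p = 1.35e-05). Vcp and its cofactors Nploc4 and Faf1 did not pass, at 0.11, 0.11 and 0.019, while the cofactor Ufd1l rose by 0.23. Of the genes for nuclear import of the proteasome, Ipo9 rose by 0.25 and Akirin2 fell by 0.24.

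Genes that work with the immunoproteasome in MHC class I presentation, or are known to induce it, were mostly lower. Of the 7 on the list none increased and 5 decreased, and the median log2FC was -0.39. Among all genes tested 37.6% increased and 36.7% decreased, and the median was 0.0033. Tap1 and Tap2, the peptide transporter genes that flank Psmb8, had log2FC values of -0.50 (adjusted p = 0.00304) and -0.52 (adjusted p = 2.78e-05). B2m, the light chain of MHC class I, fell by 0.39 and Tapbp by 0.23. Irf1 had a log2FC of -0.18 (adjusted p = 0.051, and 0.0198 with the replicate block) and Nlrc5, the transactivator of MHC class I, 0.15 (adjusted p = 0.436). Psme1 and Psme2, which are also known as interferon-inducible, rose in the same samples.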

How the data were processed

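RNA of 6 B cell samples, 3 CpG-stimulated and 3 unstimulated, was extracted with the RNeasy Plus Mini Kit and sequenced from TruSeq mRNA libraries. According to the submitters' processing notes the authors checked and trimmed reads with FastQC 0.11.7 and Trim Galore 0.6.5, aligned them to mm10 with STAR 2.6.1a and counted them per gene with featureCounts (Subread 2.0.1). The authors then applied quantile normalization and voom of limma and deposited log2 CPM values, which are not counts. The annotation and strand setting of the counting are not given in the sources used here. Quantile normalization removes differences in depth and in total RNA between samples.

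The deposited log2 values entered a linear model per gene, fitted with lmFit of limma 3.58.1 under R 4.3.3, and variances were moderated along the expression trend by eBayes. Genes above the level of 10 reads (-0.76) in at least 3 samples were tested, and Benjamini-Hochberg adjustment covered all 11233 of them. The procedure was tested on simulated data. Pairs of genes were compared with two-sided exact permutation tests over samples in scipy 1.17.1. Levels per kb used the longest coding transcript of GENCODE M21 (GRCm38) matched to RefSeq; older symbols were matched through the RefSeq table. The limits of intervals are those of the limma fit.

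Members, classes and lists were chosen with earlier results of these data known. Values in every sample are given for the catalytic genes and their counterparts, activators, the inhibitor, the 5 highest and 5 lowest log2FC, and members not tested; Psmd10 and Nfe2l1 were added after their values were seen. Some genes of the pathway and MHC class I lists are counted but not reported here by name. Deviations from group means correlated at 0.435, 0.224 and 0.300 between samples of the same number and from -0.281 to 0.0279 between others, so the numbers were treated as pairing the samples in an alternative with a replicate block. A shift by number in the deposited values can also give this: of 887, 868 and 912 genes below the level of no reads in both samples of a number, 99.9, 100 and 100% had values that differed by less than 0.0015 log2 units. Alternatives covered the filter, the block, each sample left out, the trend, log2(CPM + 1) and median centring.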

Additional observations from a re-analysis of the deposited data

How the results depend on the processing

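Directions were kept by all 47 members in all 12 alternatives, in 564 values, of which 551 also kept their side of the threshold and 0 were reversed. The others belonged to Psmb1 (7 values, no longer passing), and to Psmb9, Psmd10 and Psmf1 (6 values, now passing), and the cause was not tested. Psmb1 had an adjusted p of 0.0554 without the filter and of 0.0768 without the trend. With the replicate block 41 members increased and 5 decreased, as Psmd10 and Psmb9 passed, and the block changed no other call among the members; among the listed pathway genes 18 increased and 10 decreased. Leaving out each sample in turn gave 40 to 41 members increased, 3 to 4 decreased and 10 to 11 over a log2FC of 1. Over all alternatives the median log2FC ranged from 0.63 to 0.74 for the chaperones and from -0.79 to -0.67 for the immunoproteasome genes. The pairs changed by the same amounts with the block, where the smallest p of a sign test over 3 pairs is 0.25. Depth per sample is not in the values, so no interval for counting error was given.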
